A study of Homo sapiens with 4 samples.

Results

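Gene expression in BJ cells transduced with sgRNA-AP1-71 was compared with that in BJ cells transduced with sgRNA-AP1-69, gene by gene, as the log2 ratio of the deposited expression values. The values are RPKM, read counts scaled to transcript length and library size, after quantile normalization across libraries. A gene was compared where the mean of these 2 libraries was at least 2 RPKM, which held for 7550 of 12033 genes in the table. The other 2 of the 4 libraries, sgRNA-NT and sgRNA-FOXF1, do not enter the ratio, and their levels are given only beside it.

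BJ cells are human fibroblasts immortalized with hTERT, the catalytic subunit of telomerase, and the line used here carries an oncogenic RASG12V that 4-hydroxytamoxifen (4-OHT) switches on. All 4 libraries are polyA RNA taken after 14 days of 4-OHT, so RAS induction is shared by every library, the control included. The groups differ in the guide RNA delivered with Cas9: a non-targeting guide (sgRNA-NT), a guide against the FOXF1 gene (sgRNA-FOXF1), and the guides sgRNA-AP1-69 and sgRNA-AP1-71, both directed at an AP-1 site in the enhancer EnhAP1-OIS1 and called guide 69 and guide 71 below. sgRNA-NT is called the control. Transduced cells were selected with puromycin and no cloning step is described, so each library holds a mixed population of edited cells. Each guide has 1 library. No difference below therefore has a replicate error, no test was made, and a difference between the guides cannot be told apart from a difference between these particular cultures or libraries.

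AP-1 is a dimer of FOS and JUN family proteins that binds a short palindromic DNA motif, and RAS signalling through ERK increases its activity. Prolonged RAS signalling drives fibroblasts into oncogene-induced senescence, a state in which cells stop dividing and secrete cytokines, chemokines and matrix proteases. Transcription of many of these secreted factors depends on NF-kB, often together with AP-1, and is started and sustained by interleukin-1 signalling. FOXF1 is a forkhead transcription factor of mesenchymal cells.

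The targeted sequence is shown because both guides are aimed at this single site. EnhAP1-OIS1 spans chr16:86420533-86421514 (GRCh37/hg19), an intergenic stretch that overlaps no annotated gene, with its centre 123109 bases before the start of FOXF1. It holds 1 AP-1 core at chr16:86421275-86421281, given here in capitals inside the 101 bases at chr16:86421228-86421328, plus strand.
EnhAP1-OIS1: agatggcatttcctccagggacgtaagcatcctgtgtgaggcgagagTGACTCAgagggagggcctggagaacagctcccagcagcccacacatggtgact
The guide sequences are not shown here. Under the design rule of the guide library, a cut inside the motif or within 5 bases of it next to an NGG PAM, 4 protospacers qualify, all on the plus strand, and the PAM of each is in capitals.
candidate 1: gtgaggcgagagtgactcagAGG
candidate 2: tgaggcgagagtgactcagaGGG
candidate 3: ggcgagagtgactcagagggAGG
candidate 4: gcgagagtgactcagagggaGGG
The first pair would be cut inside the motif and the second pair a few bases after it. Which of them correspond to sgRNA-AP1-69 and sgRNA-AP1-71 is not assigned here.

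Most genes stood at nearly the same level with both guides. The log2 ratio of guide 71 to guide 69 had a median of 0.00 and a standard deviation of 0.29 across the 7550 genes compared, 95.0% of them differed by less than 1.5-fold and 251 had equal values. The ratio was above 0 for 3639 genes (48.2%) and below 0 for 3660. The spread was 0.33 for the 2457 genes with a mean of 2 to 5 RPKM, 0.27 for 1739 genes at 5 to 10 RPKM, 0.26 for 2546 genes at 10 to 50 RPKM and 0.30 for the 808 genes at 50 RPKM or more. With guide 71, 29 genes were at least 2-fold higher, which is 0.384% of the genes compared, and 12 were at least 2-fold lower, or 0.159%. At 1.5-fold the counts were 193 higher (2.56%) and 184 lower (2.44%). Differences of at least 4-fold were found for 4 genes, CXCL8, CXCL1, CSF2 and CSF3, all higher under guide 71. Of the genes compared, 3 were at the floor of 1 RPKM under guide 69 and 0 under guide 71. These 3, CSF3 among them, passed the filter on the mean only through guide 71, and all are counted in the 29. As these are bulk RNA samples, fewer cells of a type and less RNA per cell cannot be told apart.

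**Figure D1:**
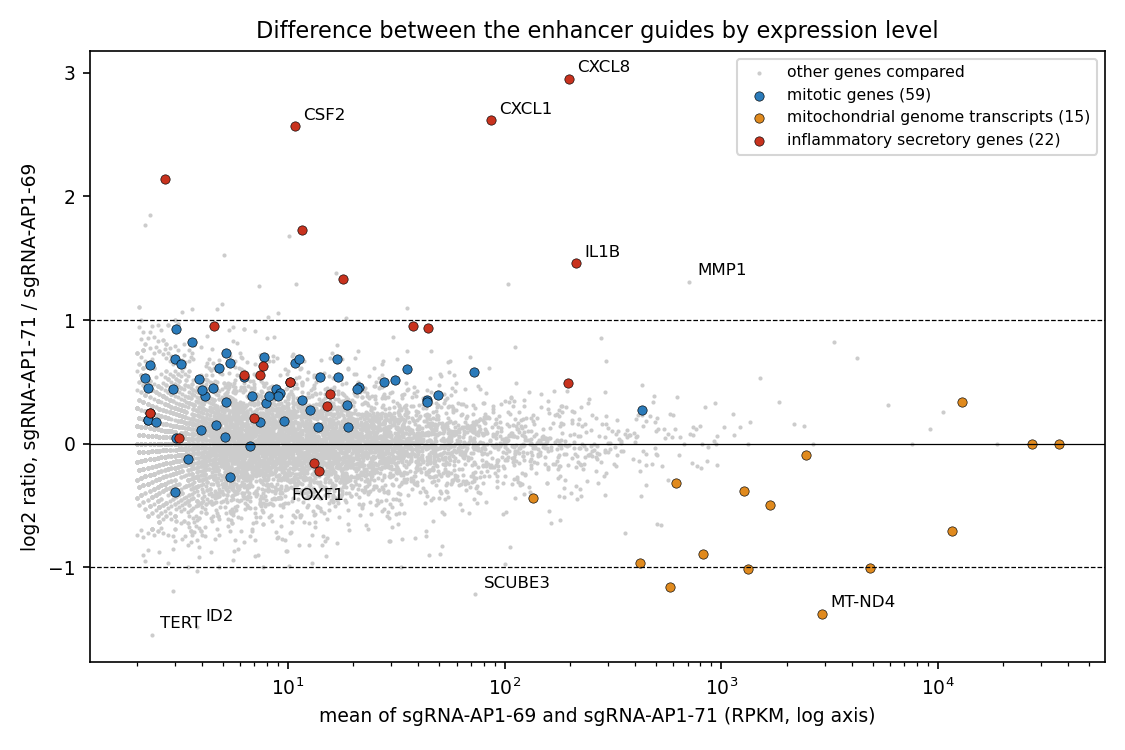
The log2 ratio of sgRNA-AP1-71 to sgRNA-AP1-69 is plotted against the mean of these 2 libraries (RPKM, log axis) for the 7550 genes compared, with dashed lines at 2-fold. Secreted inflammatory genes (red, 22) reach a log2 ratio of 2.95, mitotic genes (blue, 59) lie mostly above 0, and transcripts of the mitochondrial genome (orange, 15) lie mostly below 0.

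The study assigned EnhAP1-OIS1 to FOXF1, so FOXF1 and its neighbours are given first. FOXF1 stood at 29.6 RPKM in the control, 11.1 under guide 69, 7.8 under guide 71 and 25.0 with FOXF1 targeted. Both enhancer libraries were below the other 2, and guide 71 was the lowest of the 4, with a log2 ratio of -0.51 to guide 69 (1.42-fold). FOXF1 therefore stayed short of the 1.5-fold size at which list members were counted. FENDRR, the long non-coding RNA transcribed divergently from FOXF1, was at 4.7, 1.8, 1.6 and 5.9 RPKM in the control, guide 69, guide 71 and FOXF1-targeted libraries, and its mean of 1.7 RPKM in the enhancer libraries left it out of the comparison. The 2 enhancer libraries differed by a log2 ratio of -0.17 for FENDRR, and both were again below the others.

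Of 12 genes in the table that reach within 1 Mb of the enhancer, 11 were above the floor of the table, 1 RPKM, in an enhancer library and FOXC2 was at the floor in all 4. None of the 11 differed by 1.5-fold between the guides. The replication factor GINS2 was at 5.5 RPKM under guide 69 and 7.8 RPKM under guide 71, a log2 ratio of 0.50, and is described again with the replication genes. C16orf74 had 4.6 and 5.6 RPKM (log2 ratio 0.28). The autophagy gene MAP1LC3B stood at 28.2 and 26.1 RPKM (-0.11), the ubiquitin ligase subunit FBXO31 at 5.5 and 5.3 RPKM (-0.05), the membrane insertase subunit EMC8 at 13.7 and 14.6 RPKM (0.09) and the cytochrome oxidase subunit COX4I1 at 79.9 and 84.8 RPKM (0.09). MTHFSD was equal at 1.8 RPKM, the forkhead gene FOXL1 was at 1.6 and 1.5 RPKM, and GSE1 was at 1.6 and 1.2 RPKM. FOXF1 thus had the lowest ratio among these neighbours.

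The RAS and AP-1 genes upstream of the site were close in both libraries. HRAS, which would also take up reads of an H-RAS transgene, was at 446.4 RPKM under guide 69 and 427.4 RPKM under guide 71 (log2 ratio -0.06), against 829.4 RPKM in the control and 707.6 RPKM with FOXF1 targeted. Among 11 AP-1 and related factors compared, 0 differed by 1.5-fold, although 2 did after correction for length and GC content, and the median log2 ratio was -0.02, a sign that turned when ratios were corrected for GC content or when the mean was taken. JUN was at 28.9 and 25.1 RPKM (-0.20), and FOSL1, a FOS relative that RAS signalling induces, at 47.7 and 46.2 RPKM (-0.05). FOS stood at the floor throughout. The largest differences on the list were those of MAFF at 11.2 and 16.6 RPKM (0.57) and FOSL2 at 8.5 and 12.1 RPKM (0.51). The ERK pathway list of 27 compared genes had a median of 0.12, and IER3 was its 1 member past 1.5-fold.

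Inflammatory secretory genes carried the largest differences between the guides. Of 52 listed genes 22 could be compared, 11 of them were at least 1.5-fold higher under guide 71 and 0 lower, and 20 of the 22 had a ratio above 0. Their median log2 ratio was 0.59, against 0.00 over all genes compared. The list contributed 7 of the 29 genes that were at least 2-fold higher. CSF3, counted in the 22, the 11 and the 7, passed the filter of 2 RPKM only through guide 71. The guide 71 library was the highest of the 4 for 17 of the 22 genes, where 29.7% of all genes compared had their highest value in that library. The summed level of the 38 listed genes in the table was 533.3 RPKM under guide 69 and 1350.1 RPKM under guide 71, against 612.9 RPKM in the control and 486.5 RPKM with FOXF1 targeted. A few genes make up most of the guide 71 sum: CXCL8 at 350.2, IL1B at 311.8, TNFRSF11B at 228.6 and CXCL1 at 148.2 RPKM.

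Chemokines came first. CXCL8, which encodes interleukin-8 and attracts neutrophils, was at 32.0 RPKM in the control, 45.2 under guide 69, 350.2 under guide 71 and 67.3 with FOXF1 targeted. The guide 71 library stood far above the other 3, at 7.75-fold the level of guide 69 (log2 ratio 2.95), the largest ratio of all genes compared. CXCL1, another neutrophil attractant that shares the receptor CXCR2, followed with 16.5, 24.1, 148.2 and 39.6 RPKM in the same order of libraries. Its log2 ratio was 2.62, and no other library exceeded 39.6 RPKM. CCL2, which attracts monocytes, was at 5.0, 10.2, 25.7 and 13.4 RPKM (log2 ratio 1.33), with the control lowest and guide 71 highest. The T-cell attractant CCL5 differed little between the guides, with 2.1 and 2.5 RPKM (0.25).

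Colony-stimulating factors showed the same order of the enhancer guides. CSF2, which encodes GM-CSF, a growth factor of granulocytes and macrophages, was at 4.3 RPKM in the control, 3.1 under guide 69, 18.4 under guide 71 and 4.6 with FOXF1 targeted (log2 ratio 2.57). CSF3, the granulocyte factor G-CSF, was at the floor of 1 RPKM in the other 3 libraries and at 4.4 RPKM under guide 71, hence at least 4.4-fold higher than under guide 69. CSF1, the macrophage factor, was even, at 3.1 and 3.2 RPKM. CSF2 and CSF3 thus differed by over 4-fold and CSF1 by less than 1.5-fold.

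In the interleukin-1 system, IL1B, the secreted cytokine itself, was at 114.5 RPKM in the control, 113.2 under guide 69, 311.8 under guide 71 and 73.7 with FOXF1 targeted. The log2 ratio was 1.46, and guide 69 and the control were almost equal. Its receptor IL1R1 was at 3.1 RPKM under guide 69 and 6.0 RPKM under guide 71 (0.95), and the receptor-associated signalling protein IRAK2, which is not on the list, was at 9.2 and 24.0 RPKM (1.38). IL37, an anti-inflammatory relative of interleukin-1, was at 6.0 and 8.8 RPKM (0.55) and IL11 at 6.0 and 9.3 RPKM (0.63). IL1A was at the floor in all 4 libraries. IL6, a leading cytokine of the senescence secretome, was at the floor in the other 3 libraries and at 2.2 RPKM under guide 71, too low to be compared.

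Other inducible mediators were also higher. PTGS2, the prostaglandin synthase COX-2, was at 5.7 RPKM in the control, 5.4 under guide 69, 17.9 under guide 71 and 7.4 with FOXF1 targeted (log2 ratio 1.73). The leukocyte adhesion molecule ICAM1 stood at 30.5 and 58.3 RPKM with the enhancer guides (0.93). Of the low members that were not compared, CXCL2, CXCL3, CXCL5, CXCL6, CXCL10 and TNFAIP3 were at the floor under guide 69 and between 1.1 and 2.2 RPKM under guide 71, whereas CCL26 and IL13RA2 were at the floor under guide 71 and slightly above it under guide 69. Another 7 listed genes, IL24, IL32, LIF and BIRC3 among them, were at the floor in both.

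The NF-kB subunits named here each differed by less than 1.5-fold. Over the 8 NF-kB genes compared the median log2 ratio was 0.35, and 6 were above 0. RELA, the main activating subunit, was at 13.9 RPKM under guide 69 and 12.5 RPKM under guide 71 (log2 ratio -0.15), and NFKB1, its usual partner, was at 6.5 and 7.5 RPKM (0.21). RELB and NFKB2, which pair in the alternative pathway, had ratios of 0.50 and 0.40. NFKBIA, an inhibitor that NF-kB itself induces, was at 19.9, 25.6, 49.6 and 30.9 RPKM in the order control, guide 69, guide 71 and FOXF1 targeted (0.95), the only one of 8 NF-kB genes compared that passed 1.5-fold. The inhibitors NFKBIE and NFKBIB had ratios of 0.31 and -0.22, and NFKBIZ, a nuclear cofactor, had 0.56. Among the genes at least 2-fold higher were ZC3H12A and SOCS1, which are not on the inflammatory list. ZC3H12A, a ribonuclease that degrades cytokine mRNAs, was at 6.3 and 15.4 RPKM (1.29), and SOCS1, an inhibitor of cytokine receptor signalling, at 4.3 and 10.4 RPKM (1.27). SOCS1 was as high with FOXF1 targeted, at 10.6 RPKM, so for this gene guide 71 was not the highest library.

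**Figure D2:**
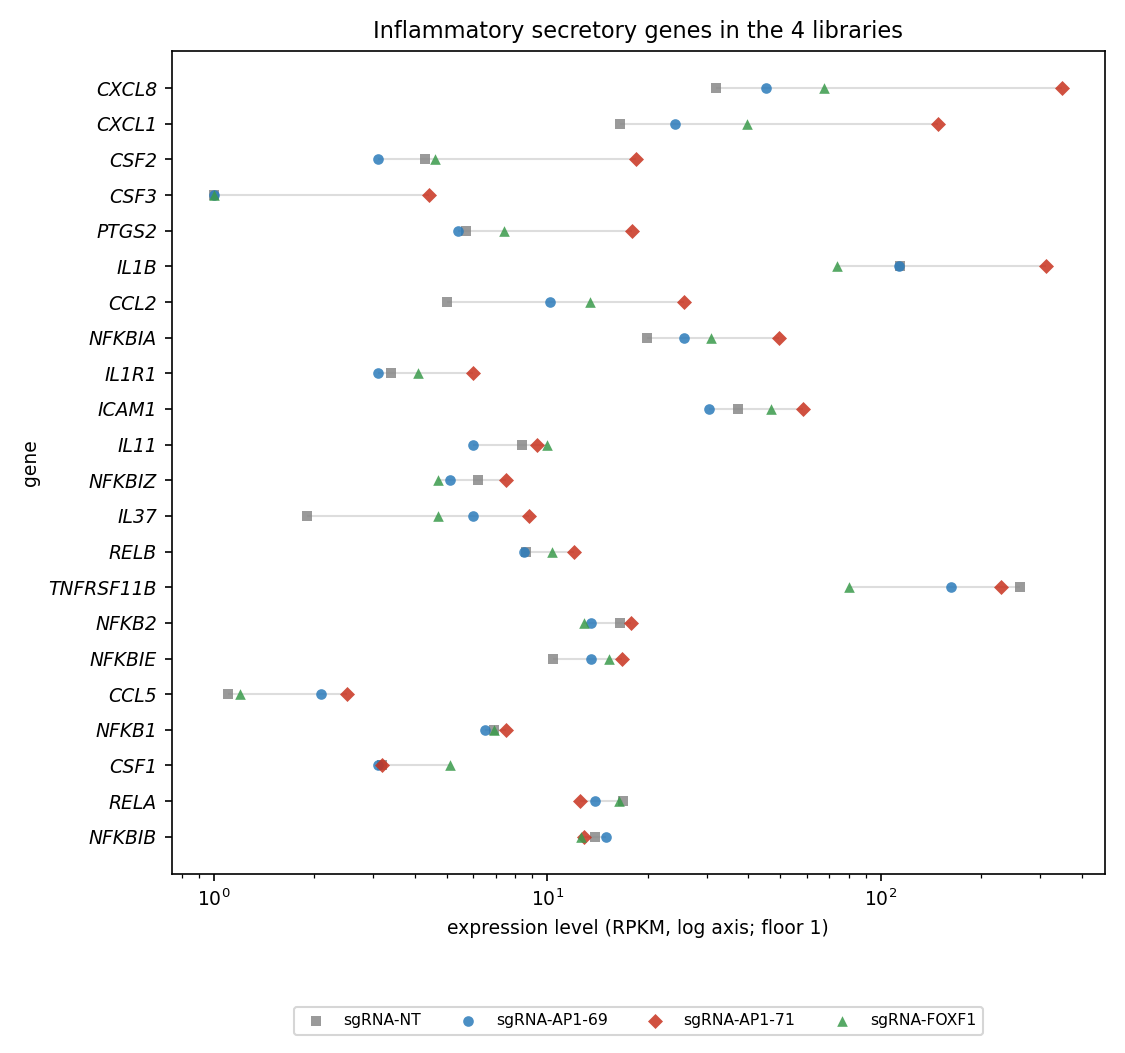
Levels (RPKM, log axis, floor 1) of the 22 inflammatory secretory genes compared are shown in each of the 4 libraries, ordered by the log2 ratio of sgRNA-AP1-71 to sgRNA-AP1-69. The red diamond of sgRNA-AP1-71 lies farthest right for 17 of the 22 genes, and for CXCL8 it lies at 350.2 RPKM against 45.2 RPKM with sgRNA-AP1-69.

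The promoters of the leading genes are shown because the genes differed together. RefSeq sequences (GRCh38.p14) were at hand for 16 of the 29 genes that were at least 2-fold higher. The 150 bases before the annotated start are printed, plus strand, with the NF-kB core GGNNNTTCC (searched on both strands) and the AP-1 core TGANTCA in capitals: chr4:73740419-73740568 for CXCL8, chr4:73869243-73869392 for CXCL1 and chr5:132073639-132073788 for CSF2.
CXCL8: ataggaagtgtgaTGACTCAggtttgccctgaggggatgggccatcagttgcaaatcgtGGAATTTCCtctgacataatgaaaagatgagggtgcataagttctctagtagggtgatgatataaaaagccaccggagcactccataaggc
CXCL1: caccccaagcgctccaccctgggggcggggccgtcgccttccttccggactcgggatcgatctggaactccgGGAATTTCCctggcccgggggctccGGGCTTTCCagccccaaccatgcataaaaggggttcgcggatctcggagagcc
CSF2: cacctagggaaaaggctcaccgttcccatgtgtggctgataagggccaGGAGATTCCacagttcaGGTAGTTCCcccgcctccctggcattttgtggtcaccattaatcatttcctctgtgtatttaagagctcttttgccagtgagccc
In the 250 bases before the start, 5 of the 16 promoters (31.3%) held the NF-kB core and 2 (12.5%) held the AP-1 core. Over all 27305 promoters of the reference the shares were 17.1% and 6.60%, and over the 5859 promoters of genes compared they were 20.9% and 3.72%. Of 4 matched promoters of genes that were at least 2-fold lower, 1 held the NF-kB core. The printed promoters are all among the 5 that held the NF-kB core and so are not typical of the 16. These are matches of letters in a fixed window and describe no binding.

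Other genes that were at least 2-fold higher are not on the inflammatory list. SOD2, which detoxifies superoxide in mitochondria, was at 6.5 RPKM in the control, 4.8 under guide 69, 15.4 under guide 71 and 3.8 with FOXF1 targeted (log2 ratio 1.68). C3, the central complement component, was at 2.9, 2.6, 7.5 and 3.3 RPKM (1.53), and IER3, an immediate early response gene from the ERK list, at 63.8, 60.2, 147.1 and 85.4 RPKM (1.29). SOD2, C3 and IER3 had their highest level under guide 71. The zinc transporter SLC39A14 was at 12.3 RPKM under guide 69 and 24.9 RPKM under guide 71 (1.02). C15orf48 and ADGRE1, a receptor best known from macrophages, were at the floor under guide 69 and at 3.6 and 3.4 RPKM under guide 71, at least 3.6-fold and 3.4-fold higher.

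MMP1, the interstitial collagenase, showed another order of libraries. It was at 978.0 RPKM in the control, 408.1 under guide 69, 1012.7 under guide 71 and 501.8 with FOXF1 targeted (log2 ratio 1.31). The levels under guide 71 and the control were close, and the other 2 libraries were lower. G0S2, an inhibitor of triglyceride lipase, was at 8.7, 22.5, 48.1 and 81.3 RPKM (1.10), with the control lowest and FOXF1-targeted cells highest. C1QTNF1, a secreted relative of adiponectin, was at 3.3, 5.8, 12.1 and 11.5 RPKM (1.06), and FAM19A3 at 3.3, 3.1, 6.8 and 3.4 RPKM (1.13). The acid phosphatase ACPP was at 5.3 and 10.8 RPKM with the enhancer guides (1.03). Over all 29 genes, 26 had their highest value under guide 71, a share fixed in part by the choice of genes that were high there.

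Mitotic genes were higher under guide 71 by small amounts that ran through the list. Of 89 listed genes 59 were compared, 13 were at least 1.5-fold higher and 0 lower, and 55 had a ratio above 0, with a median log2 ratio of 0.41. No member reached 2-fold. CENPA, the histone variant that marks centromeres, was at 1.5 RPKM in the control, 2.1 under guide 69, 4.0 under guide 71 and 2.3 with FOXF1 targeted (0.93). The chromosome motor KIF4A was at 1.9, 2.6, 4.6 and 2.9 RPKM (0.82), and the spindle protein SPAG5 at 3.2, 3.9, 6.5 and 4.3 RPKM (0.74). For these 3 genes, picked for their high ratios, the control was lowest and guide 71 highest. HMGB2, a chromatin protein of cycling cells, was at 5.9 RPKM under guide 69 and 9.6 RPKM under guide 71 (0.70), the kinetochore protein CENPW at 12.9 and 20.8 RPKM (0.69) and the kinase MELK at 2.3 and 3.7 RPKM (0.69). The guide 71 library was the highest of the 4 for 38 of the 59 genes, against 29.7% of all genes compared.

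The difference was similar across the roles of the mitotic genes. Medians were 0.44 for 15 kinases and regulators, 0.37 for 16 spindle proteins and kinesins, 0.45 for 14 kinetochore and checkpoint genes and 0.36 for 14 genes of chromosome structure and mitotic exit. The summed level of the 87 mitotic genes in the table was 1009.0 RPKM under guide 69 and 1295.6 RPKM under guide 71, against 838.9 RPKM in the control and 1128.7 RPKM with FOXF1 targeted.

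DNA replication genes had a median of 0.26 over 46 compared genes. Of these 42 had a ratio above 0, but only CDC6, CCNA2 and RRM2 were at least 1.5-fold higher, and none of the list was after correction for length and GC content. CDC6, which loads the replicative helicase, was at 3.7 RPKM in the control, 5.5 under guide 69, 8.6 under guide 71 and 5.4 with FOXF1 targeted (0.64). The cyclin CCNA2 was at 4.5 and 6.9 RPKM with the enhancer guides (0.62), and RRM2, a subunit of ribonucleotide reductase, at 9.0 and 13.7 RPKM (0.61). All 15 licensing and helicase genes compared were above 0, with a median of 0.28. G1 cyclins and CDK inhibitors had no member past 1.5-fold, and their median over 10 genes was -0.09. CDKN1A, the p53-induced inhibitor p21, was at 736.2, 627.8, 512.0 and 568.5 RPKM in the order of libraries used above (-0.29), and CCND1, which encodes cyclin D1, was at 775.8, 488.1, 364.0 and 334.2 RPKM (-0.42). LMNB1, a nuclear lamina gene whose level declines in senescent cells, was at 3.9 RPKM under guide 69 and 5.5 RPKM under guide 71 (0.50).

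Targets of p53 had a median of -0.16, with 23 of 28 compared genes below 0, 4 at least 1.5-fold lower under guide 71 and 0 higher. The antiproliferative gene BTG2 was at 18.1 RPKM under guide 69 and 10.8 RPKM under guide 71 (-0.74), the stress protein SESN2 at 12.7 and 8.2 RPKM (-0.63), the ribonucleotide reductase subunit RRM2B at 7.3 and 4.8 RPKM (-0.60) and the death receptor FAS at 7.1 and 4.7 RPKM (-0.60). For these 4 genes, picked as the lowest of the list, guide 71 was the lowest of the 4 libraries. Over all 28 it was lowest for 7, near the share of 23.0% over all genes compared. FAS has no length or GC value, and of the other 27 members 3 were at least 1.5-fold lower before correction for length and GC content and 1 after it.

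Interferon-stimulated genes had a median of 0.29 over 18 compared genes, with 4 at least 1.5-fold higher under guide 71 and 0 lower. The members with the largest ratios were low. The antiviral enzyme OAS2 was at 1.5 RPKM under guide 69 and 2.8 RPKM under guide 71 (0.90) and the tetherin gene BST2 at 2.9 and 5.0 RPKM (0.79). IRF1, a transcription factor of the interferon response, was at 3.5 and 5.3 RPKM (0.60). The median was 0.18 among the 10 members with a mean of at least 5 RPKM. Of 9 antigen presentation genes, ERAP1 at 1.7 and 3.1 RPKM (0.87) and PSMB10 at 4.2 and 7.4 RPKM (0.82) passed 1.5-fold.

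Glycolysis and hypoxia genes had a median of 0.20 over 33 compared genes, with 7 at least 1.5-fold higher under guide 71 and 1 lower. LDHA, the lactate dehydrogenase subunit, was at 191.8 RPKM in the control, 227.8 under guide 69, 361.4 under guide 71 and 175.8 with FOXF1 targeted (0.67). The hypoxia-responsive genes NDRG1 and BNIP3 had ratios of 1.09 and 0.74, with NDRG1 at 3.0 and 6.4 RPKM, and the carbonic anhydrase CA12 was at 2.0 and 4.0 RPKM. The enolase ENO2 was at 4.6 and 7.5 RPKM (0.71), and PFKFB3, a regulator of glycolytic flux, had a ratio of 0.69. ARRDC4, a glucose-responsive arrestin relative, was the 1 lower member, at 11.2 and 6.6 RPKM (-0.76).

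**Figure D3:**
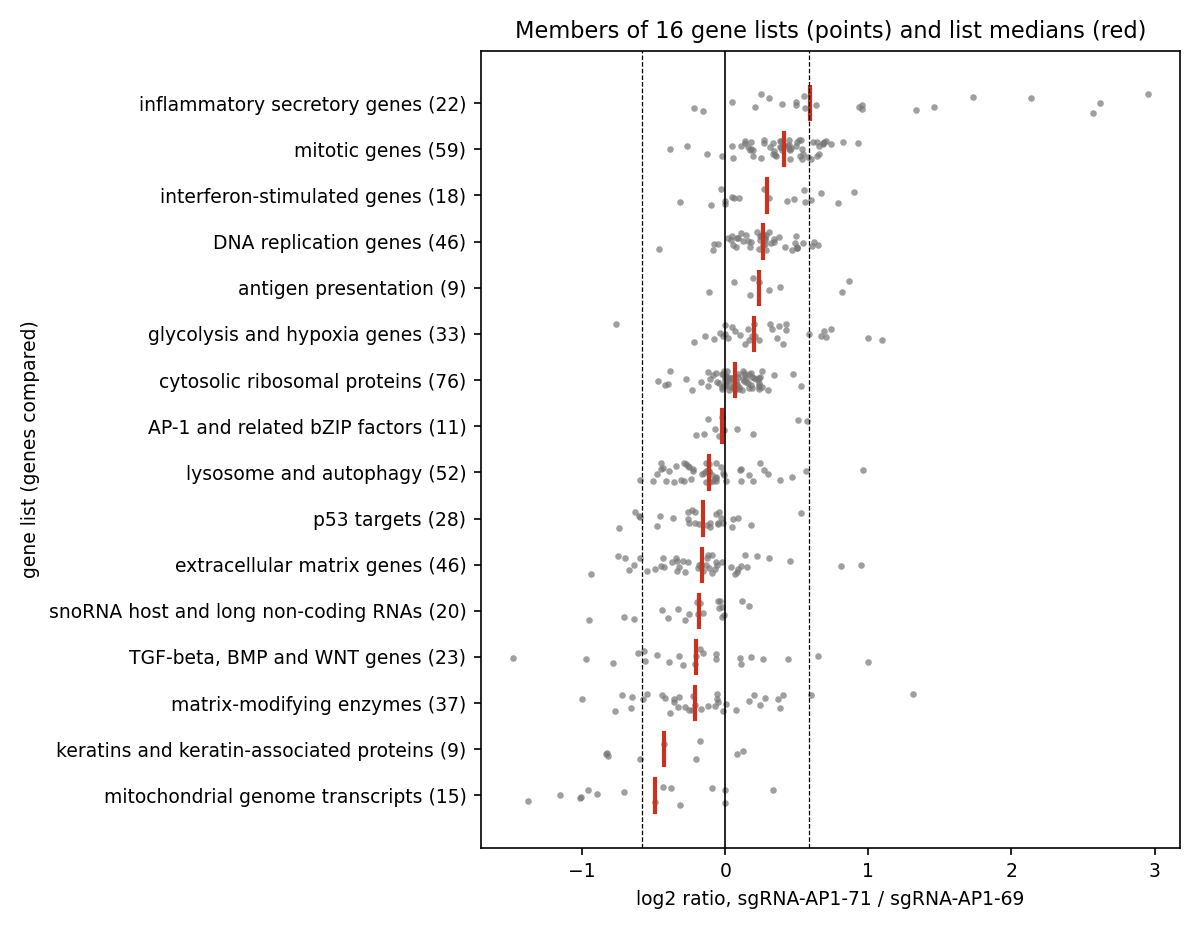
Each point is the log2 ratio of sgRNA-AP1-71 to sgRNA-AP1-69 of 1 gene in 16 lists (number of genes compared in brackets), with the list median in red and dashed lines at 1.5-fold. Medians run from 0.59 for inflammatory secretory genes and 0.41 for mitotic genes to -0.49 for mitochondrial genome transcripts.

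Among the genes that were lower under guide 71, those of the mitochondrial genome formed the largest group. They made up 5 of the 12 genes that were at least 2-fold lower. Of 15 messenger and ribosomal RNAs of the mitochondrial genome, all compared, 7 were at least 1.5-fold lower and 0 higher, and the median log2 ratio was -0.49. MT-ND4, a subunit of respiratory complex I, was at 11475.6 RPKM in the control, 4212.3 under guide 69, 1623.7 under guide 71 and 5249.2 with FOXF1 targeted (-1.38). MT-ND1 was at 1623.7, 800.6, 359.0 and 949.7 RPKM (-1.16) and MT-ND2 at 2540.3, 1775.3, 879.6 and 1444.0 RPKM (-1.01). MT-ATP6, a subunit of the ATP synthase, was at 14464.8, 6517.0, 3237.6 and 11475.6 RPKM (-1.01). In all 4 genes, picked for their low ratios, the control was highest and guide 71 lowest.

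The mitochondrial transcripts differed unevenly. The 7 complex I genes had a median of -0.96, and MT-ND3 was almost equal at 2540.3 and 2382.4 RPKM (-0.09). The large ribosomal RNA MT-RNR2 was higher under guide 71, at 11475.6 and 14464.8 RPKM (0.33), while the small ribosomal RNA MT-RNR1 was lower, at 1965.9 and 1396.1 RPKM (-0.49). MT-CO1 and MT-CO2 had the same value in every library, 27029.4 and 36067.7 RPKM, because quantile normalization gives genes of equal rank an equal value. Values this high are therefore steps between ranks, and the same ones recur in different genes. The summed level of the 15 transcripts was 110763.4 RPKM under guide 69 and 98926.2 RPKM under guide 71. Both sums include the equal values of MT-CO1 and MT-CO2 and other rank steps, so they do not measure mitochondrial RNA content. The nuclear genes of the respiratory chain stood level, with a median of 0.03 over 74 genes and 0 past 1.5-fold, a sign that turned after correction for length and GC content. The short transfer RNA MT-TS1 was also 2-fold lower, at 4.1 and 1.8 RPKM (-1.19).

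**Figure D4:**
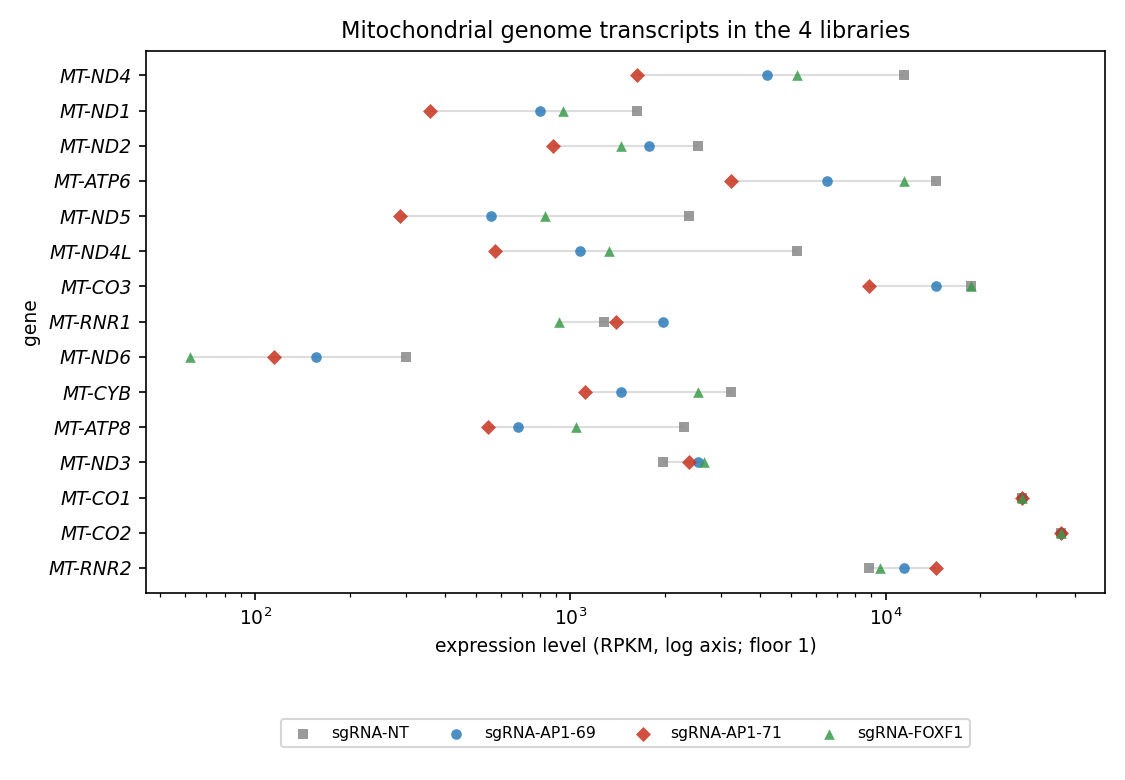
Levels (RPKM, log axis) of 15 transcripts of the mitochondrial genome are shown in the 4 libraries, ordered by the log2 ratio of sgRNA-AP1-71 to sgRNA-AP1-69. The red diamond of sgRNA-AP1-71 is farthest left for 9 of the 15 transcripts, MT-ND4 at 1623.7 RPKM among them, and MT-CO1 and MT-CO2 coincide in all libraries. The sgRNA-AP1-71 library was lowest for 23.0% of all genes compared.

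The other genes that were at least 2-fold lower had varied roles. TERT was at 11.3 RPKM in the control, 3.5 under guide 69, 1.2 under guide 71 and 3.5 with FOXF1 targeted (log2 ratio -1.54), the lowest ratio of all genes compared, and reads of the hTERT transgene that immortalized the line would be counted with it. ID2, an inhibitor of helix-loop-helix transcription factors, was at 4.3, 5.6, 2.0 and 3.7 RPKM (-1.49). SCUBE3, a secreted glycoprotein that takes part in BMP and TGF-beta signalling, was at 244.1, 102.5, 44.1 and 76.1 RPKM (-1.22). For all 3, guide 71 was the lowest library. The extracellular chaperone CLU was at 5.1 RPKM under guide 69 and 2.5 RPKM under guide 71 (-1.03), the metalloprotease ADAMTS1 at 10.2 and 5.1 RPKM, the co-chaperone DNAJB4 at 4.6 and 2.3 RPKM and POLR2A, the catalytic subunit of RNA polymerase II, at 6.4 and 3.2 RPKM. The last 3 genes sat at exactly 2-fold. POLR2A was at 28.1 RPKM in the control, so the enhancer libraries lay on the same side of the control. Of the 12 genes, 11 had their lowest value under guide 71, where 23.0% of all genes compared had it, and the choice of low genes fixes this share in part.

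The TGF-beta, BMP and WNT list had a median of -0.21 over 23 compared genes, with 4 at least 1.5-fold lower under guide 71 and 2 higher. ID genes are direct targets of BMP signalling. ID1 was at 113.2 RPKM in the control, 132.8 under guide 69, 67.7 under guide 71 and 117.3 with FOXF1 targeted (-0.97), and ID3 was at 95.8, 116.9, 79.0 and 103.3 RPKM (-0.57). With ID2, all 3 were lowest under guide 71 and highest under guide 69. DKK1, a secreted WNT inhibitor, was at 37.3 RPKM under guide 69 and 21.6 RPKM under guide 71 (-0.79), and LTBP2, a TGF-beta binding protein family member, at 3.2 and 2.1 RPKM (-0.61). FST, the activin antagonist follistatin, was at 1.4 and 2.8 RPKM and the ligand WNT5A at 21.3 and 33.3 RPKM (0.64).

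Matrix genes tended to lower values under guide 71. Over 46 compared extracellular matrix genes the median was -0.16, 34 were below 0, 6 were at least 1.5-fold lower and 2 higher. The fibrillar collagen COL11A1 was at 7.3 RPKM under guide 69 and 3.8 RPKM under guide 71 (-0.94), the basement membrane proteoglycan AGRN at 8.4 and 5.0 RPKM (-0.75), fibronectin (FN1) at 53.9 and 33.1 RPKM (-0.70) and the elastic fibre protein FBLN5 at 16.4 and 10.3 RPKM (-0.67). For AGRN, FN1 and FBLN5 both enhancer libraries were below the control, at 30.3, 151.4 and 39.6 RPKM, and guide 71 lay farther from it. Higher were DCN, a small proteoglycan, at 1.4 and 2.7 RPKM (0.95), and COL8A1 at 2.0 and 3.5 RPKM (0.81).

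Among 37 matrix-modifying enzymes and inhibitors the median was -0.21, with 5 at least 1.5-fold lower and 2 higher. The collagen cross-linking enzyme LOX was at 42.2 RPKM under guide 69 and 24.7 RPKM under guide 71 (-0.77). The metalloprotease inhibitor TIMP3 was at 722.7, 646.3, 409.2 and 696.0 RPKM in the order control, guide 69, guide 71 and FOXF1 targeted (-0.66). The protease PLAT was at 810.8, 619.7, 394.8 and 659.4 RPKM (-0.65). For TIMP3 and PLAT, picked for their low ratios, guide 71 was the lowest library. Over all 37 it was the lowest of the 4 libraries for 22, against 23.0% of all genes compared. MMP1, described above, was thus higher while LOX, TIMP3 and PLAT were lower.

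Keratins and keratin-associated proteins ranged widely in level in these fibroblasts. Their median was -0.43 over 9 compared genes, with 4 at least 1.5-fold lower and 0 higher. KRT18 was at 76.0 RPKM in the control, 135.5 under guide 69, 76.0 under guide 71 and 127.5 with FOXF1 targeted (-0.83). KRTAP3-1 was at 14.2, 65.7, 37.1 and 79.0 RPKM (-0.82), so here guide 71 lay between the control and the other 2 libraries. The large cytoskeletal linker PLEC was at 44.2 RPKM under guide 69 and 22.2 RPKM under guide 71 (-0.99), and the filamin FLNC at 48.7 and 28.7 RPKM (-0.76). Both are extremes of a list of 28 compared contractile and cytoskeletal genes, with a median of -0.09 and 3 at least 1.5-fold lower. Correction for length and GC content left a median of 0.01 and 1 lower. The linkers TLN1 and VCL were even, at -0.002 and -0.03. Among 20 snoRNA host genes and other long non-coding RNAs 18 were below 0 and the median was -0.18. MALAT1, a nuclear RNA, was at 2.9 and 1.5 RPKM (-0.95).

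Genes of the ribosome and the lysosome differed by small amounts. Over 76 cytosolic ribosomal protein genes the median was 0.07 and 52 were above 0, against 48.2% of all genes compared. Guide 71 was the highest of the 4 libraries for 52, against 29.7% of all genes compared. Of the 76, 0 differed by 1.5-fold, with RPS12 highest at 1229.5 and 1775.3 RPKM (0.53) and RPS10 lowest at 6.1 and 4.4 RPKM (-0.47). For 70 mitochondrial ribosomal protein genes the median was 0.08, guide 71 was highest for 45, and 1, MRPL15, was at least 1.5-fold higher. After correction for length and GC content, given below, 38 of the 76 and 36 of the 70 were above 0. Lysosome and autophagy genes had a median of -0.11 over 52 genes, with 39 below 0 and 1 past 1.5-fold in each direction, CTSS higher and CTSD lower. Of 29 lysosome genes among them 24 were below 0, with a median of -0.13, and guide 71 was the lowest of the 4 libraries for 19, where it was lowest for 23.0% of all genes compared.

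Fibroblast markers were similar between the enhancer libraries, and their levels varied widely. VIM was at 2644.9 RPKM under both guides, which after quantile normalization shows an equal rank. COL1A2 was at 189.4 RPKM under guide 69 and 167.1 RPKM under guide 71. LUM was at 8.3 and 7.9 RPKM, and FAP at the floor in all 4 libraries. The list includes FOXF1 itself, and its ratios compare the libraries without identifying the cells. Of 15 fibroblast markers, all in the table, 14 were compared, with a median of 0.00. DCN was the 1 marker past 1.5-fold. No endothelial marker is in the table. Of 12 epithelial markers only KRT8 and KRT18 are listed, which fibroblasts in culture also express. Of 9 immune markers 2 are listed, and CD14, the 1 compared, was at 7.9 RPKM under guide 69 and 8.5 RPKM under guide 71 (0.11). Of 8 muscle and 9 neural or melanocyte markers 2 each are listed, and TNNT1, the 1 compared, was at 11.2 and 15.8 RPKM (0.50).

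The ratio varied with transcript composition. Across 7519 genes with an annotated transcript, Spearman's rho between GC content and the log2 ratio was -0.285, and between length and the log2 ratio -0.107. These are descriptions across genes of the same 2 libraries. In 5 classes of increasing GC content the median ratio was 0.07, 0.11, 0.00, -0.05 and -0.11, and in 5 classes of increasing length it went from 0.04 to -0.04. Removing both trends left 148 genes at least 1.5-fold higher (1.97%) and 123 lower (1.64%). It left the median of inflammatory genes at 0.66 with 12 past 1.5-fold, that of mitotic genes at 0.35 with 5 past 1.5-fold, and that of extracellular matrix genes at -0.09 with 3 lower and 2 higher. For glycolysis and hypoxia genes the correction left 4 higher and 1 lower, and for the TGF-beta, BMP and WNT list 1 higher and 3 lower. Counts rose to 6 higher for interferon-stimulated genes and to 6 lower for matrix-modifying enzymes. The part of GC content and length in these differences was not tested.

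**Figure D5:**
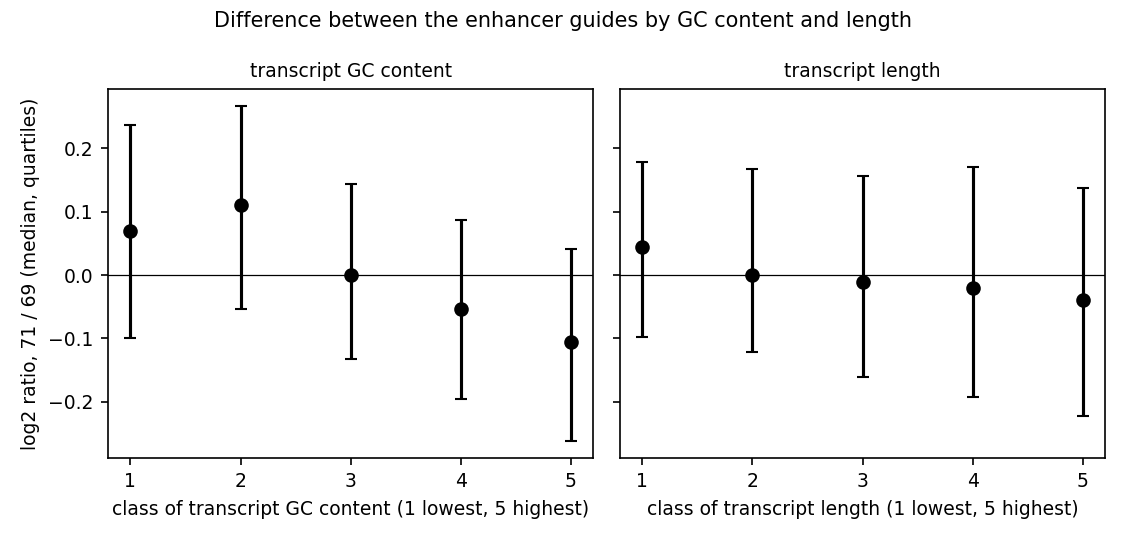
Median log2 ratio of sgRNA-AP1-71 to sgRNA-AP1-69 (points) with the lower and upper quartile (bars) in 5 classes of transcript GC content (left) and transcript length (right), each of about 1500 genes. Medians fall from 0.11 in the second GC class to -0.11 in the highest, and from 0.04 to -0.04 over the length classes.

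Differences were spread over the genome. Medians of the nuclear chromosomes lay between -0.06 (chromosome 19) and 0.06 (chromosome 18), against -0.75 for the mitochondrial genome. In 138 windows of 50 neighbouring genes the median lay between -0.11 and 0.15. Chromosome 16, which carries the enhancer, had a median of -0.04 over 380 genes.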

How the data were processed

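RNA-seq of 4 libraries, 1 per guide, was used as deposited. The authors aligned single reads to hg19 with TopHat2, counted them per gene with HTSeq, converted counts to RPKM with GENCODE annotation, quantile-normalized the libraries and set a floor of 1. The sources used here give neither tool versions nor the strand setting of the counting, and the paper and the labels name different RNA reagents and library kits. The deposited table also holds 3 columns of the authors' log2 ratios to the control, which were not used. Read counts are not analysed here, so depth is unknown.

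Log2 ratios of RPKM were computed without a pseudocount where both enhancer libraries averaged 2 RPKM or more. A gene was counted at 2-fold, a list member at 1.5-fold. With 1 library per guide no test was made. Members and lists were chosen with earlier results of these data known. Named genes are those near the enhancer, every gene at least 2-fold different at a mean of at least 5 RPKM, the 4 highest and 4 lowest of the rest, genes the paper names, and at most 6 genes per described list, those farthest from 0. NFKBIA, IL1R1, ICAM1, IL6, ID3, LMNB1, MT-ND3, other genes of the NF-kB group and further genes outside this rule were named after their values were seen, and the NF-kB promoter motif was also chosen then. A gene that the rule names is not reported here. Lengths and GC content are from GENCODE 44 on GRCh37, with 31 compared genes unmatched, and trends were removed with cubic splines of 5 knots. The ratio and count code was tested on simulated data. Python 3.11.15, numpy 2.4.6, pandas 2.3.3 and matplotlib 3.10.9 were used.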

Additional observations from a re-analysis of the deposited data

How the results depend on the processing

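The alternatives were a pseudocount of 1 RPKM, other filters on low values, centring on the median, correction for transcript length, GC content or both, a 1.5-fold size and list means. With the pseudocount 17 genes were at least 2-fold higher with sgRNA-AP1-71 and 7 lower. At a mean of at least 5 RPKM the counts were 17 and 6. With every gene above the floor 44 were higher. At 1.5-fold they were 193 and 184. The corrections leave out 2 of the 15 mitochondrial genome transcripts, MT-RNR1 and MT-RNR2, which have no length or GC value. Over the other 13 the median was -0.71 uncorrected, -0.79 corrected for GC content and -0.86 with length as well. The mean of the inflammatory secretory genes was 0.96, against a median of 0.59. The cause of these shifts was not tested, apart from the genes that a filter or a correction leaves out or adds. Under the other alternatives the 2-fold counts stayed within 1.5 times the reported ones, between 22 and 29 higher and between 9 and 17 lower. No other list or chromosome median moved by more than 0.29, the standard deviation across genes, and neither did the ratio of FOXF1. Most list medians were themselves smaller than 0.29 in size, so this limit does not show that a median kept its sign. The sign turned for several lists. Chromatin regulators had a median of 0.13, and -0.07 with every gene above the floor. Contractile and cytoskeletal genes had -0.09, and 0.01 after correction for length and GC content. Centring could change nothing, as the median over all genes was 0.00. No paired analysis was possible because each guide has 1 library. Depth is unknown, values under about 2 RPKM are steps of 0.1 above a floor, and culture, library and guide cannot be told apart.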
